A study of Mus musculus with 11 samples.

Results

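Laminins and integrins were followed as 1 group of genes in AML12 cells, a line of mouse hepatocytes. The cells had an edited *Txndc5* gene (KO), were unedited (WT) or were labelled TXNDC5 Knockin (KI). The group held every gene of the deposited count table whose name is that of a laminin alpha, beta or gamma chain or of an integrin alpha or beta subunit, 36 of 24849 genes. Of these, 26 reached 10 counts in at least 1 library, 8 of 11 laminin and 18 of 25 integrin genes. The other 10 stayed under 10 counts in all 11 libraries and were listed as not detected: *Lama1*, *Lama2*, *Lama3*, *Itga4*, *Itga9*, *Itga11*, *Itgal*, *Itgax*, *Itgb7* and *Itgb8*.

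Laminins are large proteins of the basement membrane, each built from 1 alpha, 1 beta and 1 gamma chain that are joined in the endoplasmic reticulum and linked by disulfide bonds. Integrins are receptors of the cell surface, each made of 1 alpha and 1 beta subunit, and the pair decides whether a cell binds laminin, collagen, fibronectin or another ligand. In the healthy liver, hepatocytes face a thin matrix without a continuous basement membrane, whereas bile ducts rest on one. TXNDC5 is a protein disulfide isomerase of the endoplasmic reticulum.

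The study sequenced polyadenylated RNA of 4 KO, 3 WT and 4 KI libraries, all of AML12 cells. The WT libraries are of the unedited line. The KO cells, whose genotype the labels give as a TXNDC5 knockdown, were made with a CRISPR/Cas9 plasmid cutting in exon 5 of *Txndc5* and a repair plasmid that brought in puromycin resistance, and were kept as a stable line after puromycin. The KI cells are labelled TXNDC5 Knockin, and the series describes an overexpression construct placed in the ROSA26 locus. The study's methods describe 1 medium for AML12 cells, with serum, insulin, transferrin, selenium and dexamethasone, and do not describe how the KI line was made. Each edited line is set against the unedited one as a single line, so that the edit and any other difference between the lines cannot be told apart. The libraries are numbered 5, 6, 7 and 8 in the KO and KI groups, and 5-6, 7 and 8 in the WT group. Nothing in the labels says that they came from separate cultures, so the p-values measure the spread between these libraries, which may be technical.

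Total counts were between 29840366 and 38422243 per library. Levels are given as CPM, the counts of a gene relative to the size of its library, with sizes scaled by TMM, a method that sets most genes equal between libraries. *Txndc5* had 8.5 to 12.9 CPM in the KO, 138 to 147 in the WT and 158 to 179.5 in the KI libraries. It was lower in KO than in WT cells (log2 fold change -3.81, SE 0.15, adjusted p = 4.09e-08, quasi-likelihood test of edgeR, Benjamini-Hochberg over all genes tested, as for every adjusted p given here). The KI libraries lay above the WT libraries without overlap, but the difference did not pass the test (0.24, SE 0.12, adjusted p = 0.136). The hepatocyte marker list (9 of 10 genes reached 10 counts) summed to 6332 to 7458 CPM in KO, 3864 to 6024 in WT and 2962 to 3758 in KI libraries. Its members moved both ways, *Alb* being at 3589 to 4767, 373 to 739 and 159.9 to 302 CPM and *Trf* at 1219 to 1450, 2319 to 4218 and 1327 to 1549 CPM in KO, WT and KI libraries. The cholangiocyte list (6 of 7, *Epcam* at 0 counts throughout) summed to 1374 to 1530, 3049 to 4418 and 2643 to 3129 CPM. There *Krt19* was higher in KO (1035 to 1175 CPM) than in WT libraries (653 to 862 CPM), while *Spp1*, described further on, was lower and carried most of the fall of the sum. The part of these shifts in the results on laminins and integrins was not tested. Markers of fibroblasts summed to at most 1.86 CPM and those of endothelial cells to at most 0.425 CPM. The KO and KI comparisons share the 3 WT libraries, so each is given by its own values, and KO against KI tests whether the edited lines differ. In these bulk samples, fewer cells of a type and less RNA per cell cannot be told apart.

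In KO against WT cells 23 of the laminin and integrin genes could be tested, and 13 of them were called at an adjusted p under 0.05, 11 lower and 2 higher. Over all 13359 genes tested 55.1% were called, so the share among the laminin and integrin genes, 56.5%, lay close to the background. Their median log2 fold change was -0.86, against -0.03 over all genes. In KI against WT cells 16 of 24 genes were called, 12 lower and 4 higher, where 42.3% of all genes were called, and the median was -0.36 against -0.02. In KO against KI cells 17 of 23 genes were called, 10 lower and 7 higher in the KO cells, where 54.0% of all genes were called. The libraries of the groups did not overlap for 14 of 23 genes in KO against WT (55.1% of all genes), 13 of 24 in KI against WT (44.6%) and 17 of 23 in KO against KI (48.8%). Scaling by library totals moved the median of all genes to 0.38 in KO against WT and to 0.30 in KI against WT. Without WT 8 the calls in KO against WT became 10 lower and 5 higher. With library totals the laminin and integrin calls became 8 lower and 5 higher in KO against WT, and 8 lower and 4 higher in KI against WT.

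**Figure D1:**
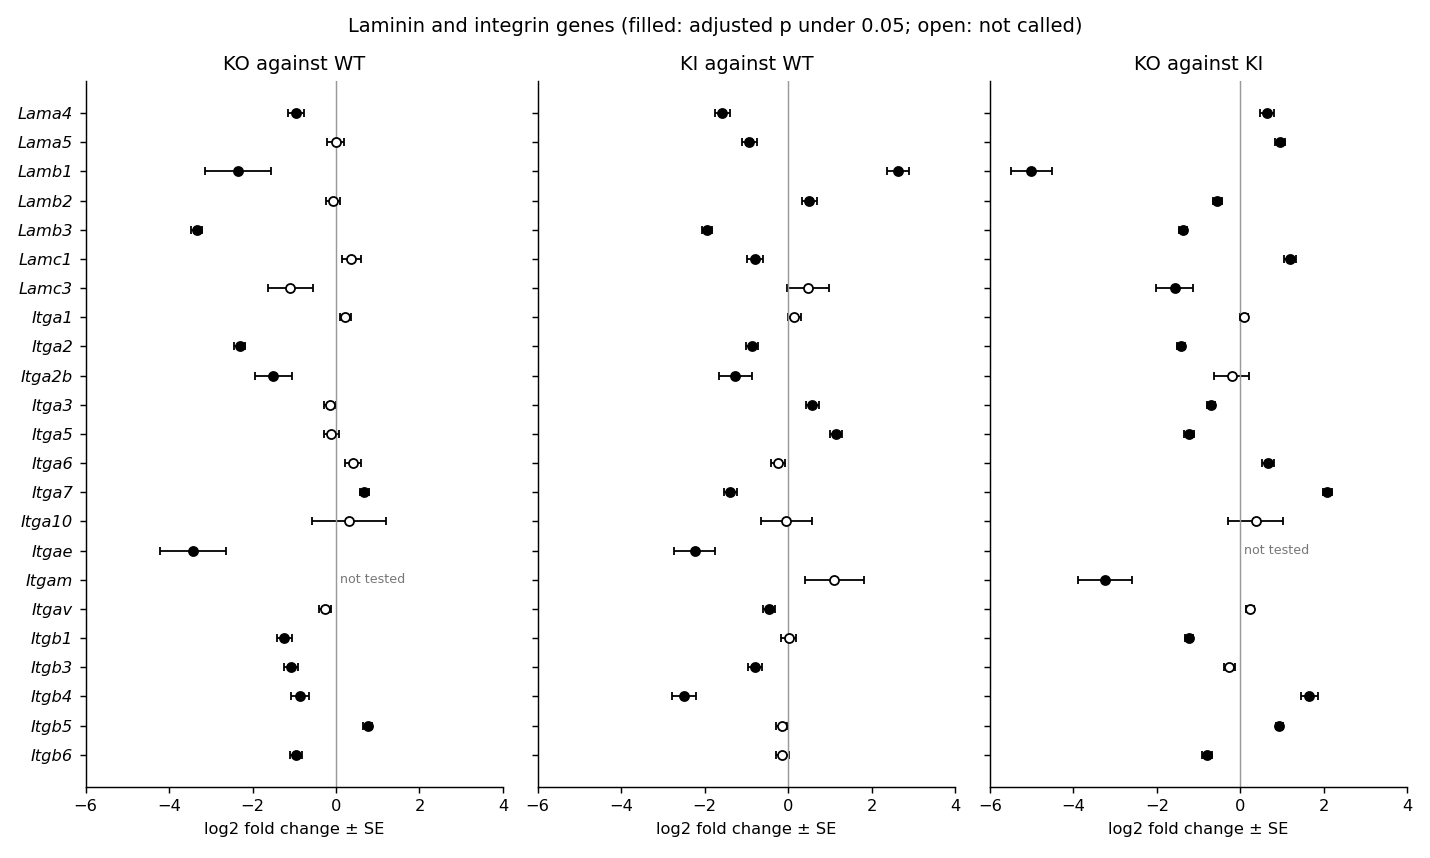
Log2 fold change of the tested laminin and integrin genes described here (horizontal axis, bars are the SE) in the 3 comparisons. Filled points passed an adjusted p of 0.05 and open points did not. *Lamb3* lies far to the left in KO against WT (-3.34), *Lamb1* lies on opposite sides of 0 in KO against WT (-2.35) and KI against WT (2.63), and *Itga7* does so the other way round (0.68 and -1.38).

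The laminin beta chains showed the widest differences of the laminin genes. *Lamb3* (GRCm38 chromosome 1, 193207699 to 193343878) encodes the beta 3 chain, a laminin chain known from epithelial attachment sites. In the KO libraries it stood at 20.3, 18.2, 20.4 and 23.0 CPM, in the WT libraries at 194, 196 and 226 CPM, and in the KI libraries at 56.4, 55.8, 51.0 and 49.9 CPM. The 3 groups did not overlap, with the KO libraries lowest and the WT libraries highest. The log2 fold change was -3.34 in KO against WT (SE 0.13, adjusted p = 3.82e-08), a 10.1-fold lower level. It was -1.95 in KI against WT (SE 0.13, adjusted p = 5.09e-07) and -1.37 in KO against KI (SE 0.10, adjusted p = 1.94e-08). These calls held under all alternatives of scaling, tool, filter and left-out library.

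*Lamb1* (chromosome 12, 31265234 to 31329644), the beta 1 chain of many laminins, was scarce in KO and WT cells. It had 0, 0, 10 and 11 counts in the KO libraries, which is 0, 0, 0.3 and 0.253 CPM. In the WT libraries it had 17, 26 and 30 counts, or 0.758, 1.05 and 1.06 CPM, and in the KI libraries it reached 6.43, 6.7, 6.8 and 5.2 CPM. The KI libraries were thus the highest and the KO libraries the lowest, without overlap. The rise in KI against WT was 2.63 on the log2 scale (SE 0.26, adjusted p = 9.99e-06), and KO lay below KI by -5.00 (SE 0.48, adjusted p = 5.48e-07). In KO against KI it passed the count filter only through the KI libraries (171 to 260 counts), and in KO against WT through the WT libraries. The fall in KO against WT (-2.35, SE 0.78, adjusted p = 0.0251) rests on few counts, and was no longer called with library totals or without any 1 of the 3 WT libraries, where the adjusted p reached 0.0863. *Lamb2*, the beta 2 chain, ranged from 108 to 134 CPM in KO, from 102 to 167 in WT and from 151 to 212 in KI libraries. It was higher in KI than in KO cells (KO against KI -0.56, SE 0.11, adjusted p = 0.000446). Its call in KI against WT (0.51, SE 0.18, adjusted p = 0.0402) was lost under several alternatives, the left-out library WT 5-6 or WT 7 among them, with an adjusted p of up to 0.152.

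The bases just before the RefSeq start site (GRCm38.p6, 250 bases upstream, written 5′ to 3′ on the strand of the gene) are shown for *Lamb3* and *Itga2*, which were lower in KO than in KI and lower in KI than in WT cells, and for *Lamb1*, which was highest in KI cells. They were chosen after their values were seen. Capitals mark matches, on either strand, to the letters GGGCGG of a GC box, TGANTCA of AP-1, GGAATG of TEAD factors or TATAAA of a TATA box. No marked match overlapped one of another motif.
Lamb3 (chr1:193301744-193301993, + strand): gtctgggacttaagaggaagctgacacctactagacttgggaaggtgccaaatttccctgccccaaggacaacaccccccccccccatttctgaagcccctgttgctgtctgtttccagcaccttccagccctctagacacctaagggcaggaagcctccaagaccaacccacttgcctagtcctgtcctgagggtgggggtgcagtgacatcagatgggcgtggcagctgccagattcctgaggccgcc
Itga2 (chr13:114932101-114932350, - strand): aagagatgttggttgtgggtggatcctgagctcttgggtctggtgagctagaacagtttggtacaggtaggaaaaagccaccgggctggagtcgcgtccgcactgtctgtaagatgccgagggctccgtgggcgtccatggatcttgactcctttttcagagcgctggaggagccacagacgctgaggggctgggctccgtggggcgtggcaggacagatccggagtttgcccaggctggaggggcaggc
Lamb1 (chr12:31265043-31265292, + strand): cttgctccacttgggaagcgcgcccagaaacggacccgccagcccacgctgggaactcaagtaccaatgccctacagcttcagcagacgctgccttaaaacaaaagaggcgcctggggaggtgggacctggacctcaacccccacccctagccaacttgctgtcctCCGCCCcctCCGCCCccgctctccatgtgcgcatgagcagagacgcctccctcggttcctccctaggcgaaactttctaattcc
Only the *Lamb1* window held a match, a pair of adjacent GC boxes whose first bases lay 84 and 75 bases before the start. For *Lamb3* the table lists a second start 249 bases downstream, whose window held 1 TEAD match. Of all 32851 windows of this length in the RefSeq table, 32.7% held a GC box, 6.75% an AP-1, 12.6% a TEAD and 12.4% a TATA match. The table has windows for 23 of the 36 laminin and integrin genes, 26 windows in all, of which 9 held a GC box, 3 a TEAD, 1 an AP-1 and 0 a TATA match. A match is a description of the letters and no evidence of binding.

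Of the gamma chains, *Lamc1* (chromosome 1, 153218922 to 153332786), the gamma 1 chain found in most laminins, had 98.5, 147, 138 and 165 CPM in the KO, 72.4, 104 and 137 CPM in the WT and 63.1, 54.5, 71.9 and 51.2 CPM in the KI libraries. KO and KI did not overlap, and the WT libraries spread over much of the range between them. KO was above KI by 1.19 (SE 0.15, adjusted p = 7.03e-06), and KI was below WT by -0.80 (SE 0.20, adjusted p = 0.00626), a call lost with library totals. KO against WT was not called (0.37, SE 0.22, adjusted p = 0.176), but was called with library totals or without WT 8. *Lamc3*, the gamma 3 chain, was near the limit of detection, with 5 to 13 counts in the KO, 8 to 26 in the WT and 22 to 41 in the KI libraries, at 0.364, 0.148, 0.36 and 0.207 CPM in the KO, 0.669, 0.323 and 0.921 CPM in the WT and 1.15, 1.02, 0.81 and 0.669 CPM in the KI libraries. WT overlapped both other groups. It was lower in KO than in KI cells (-1.57, SE 0.44, adjusted p = 0.00755), where it passed the count filter through the KI libraries.

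The alpha chains were represented by *Lama5* and *Lama4*. *Lama4*, whose product is known from the basement membranes of vessels, stood at 6.98, 10.1, 9.57 and 11.2 CPM in the KO, at 15.8, 16.8 and 22.2 CPM in the WT and at 6.63, 5.62, 6.38 and 5.72 CPM in the KI libraries, with no overlap between the groups. It was lower than WT in the KO cells (-0.96, SE 0.19, adjusted p = 0.00146) and in the KI cells (-1.58, SE 0.17, adjusted p = 2.25e-05). KO lay above KI (0.64, SE 0.16, adjusted p = 0.0036). With library totals the KO call against WT was lost. *Lama5*, the main alpha chain of epithelial basement membranes, ranged from 193 to 304 CPM in KO, from 175 to 312 in WT and from 115 to 142 in KI libraries. All KI libraries were below all others. It was lower in KI than in WT cells (-0.93, SE 0.18, adjusted p = 0.00134) and higher in KO than in KI cells (0.95, SE 0.12, adjusted p = 1.14e-05), whereas KO against WT was not called (-0.01, SE 0.20, adjusted p = 0.974).

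**Figure D2:**
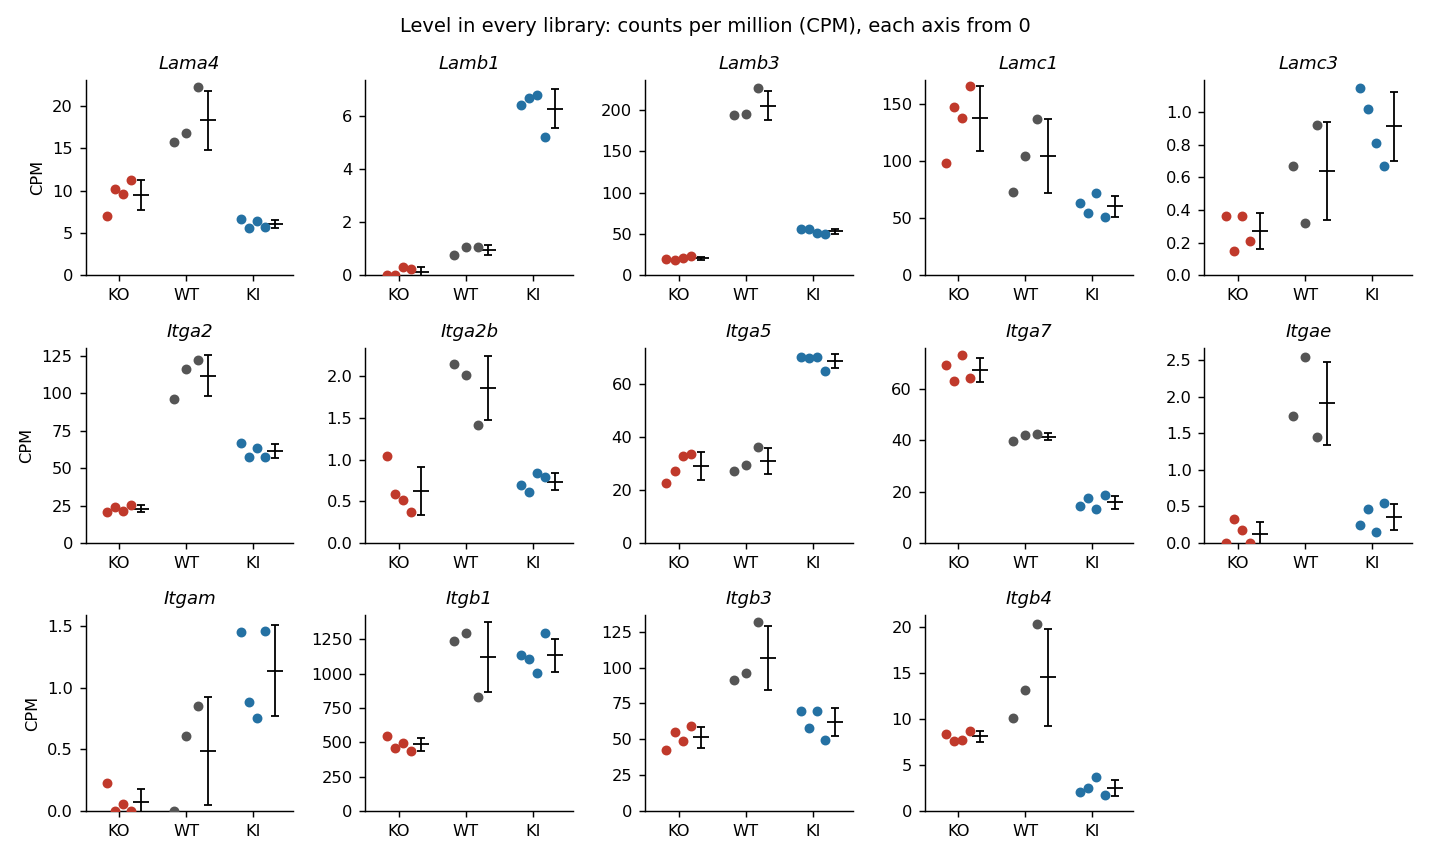
CPM (vertical axis, from 0) in each library for 14 laminin and integrin genes called with an absolute log2 fold change of at least 1 in a comparison. Points are libraries of the KO (4), WT (3) and KI (4) groups, and the bar beside them is the mean ± SD. The WT points of *Lamb3*, *Lama4*, *Itga2* and *Itgb3* lie above all points of both edited lines, and the KI points of *Lamb1* and *Itga5* lie above all others.

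To compare chains with each other, CPM were divided by the length in kb of the longest coding transcript (GENCODE M21). On this scale *Lamb3* led the laminin genes of WT cells at 42.2 (range 39.9 to 46.5), followed by *Lamb2* at 22.6 and *Lama5* at 21.5, whose ranges overlapped, and *Lamc1* at 13.7. In KO cells *Lamb2* (21.8), *Lama5* (21.7) and *Lamc1* (18) overlapped at the top, and *Lamb3* followed at 4.21. In KI cells *Lamb2* stood alone at 32.2, above *Lama5* (11.3) and *Lamb3* (10.9), which overlapped.

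As a share of the 3 beta chains per kb, *Lamb3* made up 60.9 to 68.7% in the WT, 14.3 to 17.9% in the KO and 21.2 to 27.0% in the KI libraries. With the length of all exons in place of the longest transcript the shares were 55.4 to 63.7%, 11.7 to 14.8% and 17.8 to 23.0%. The order of the groups was the same with both lengths, and the groups did not overlap. *Lamb2* took most of the rest, and *Lamb1* came to between 2.37 and 2.61% in the KI and at most 0.299% in the WT libraries. The sum of the beta chains itself was 65.0 CPM per kb in WT, 26.0 in KO and 44.2 in KI cells on average. *Lama5* was 92.6 to 93.6% of the alpha chains in KO, 85.5 to 88.7% in WT and 90.8 to 92.6% in KI libraries. These shares are of RNA per kb, and the amount of protein was not measured.

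**Figure D3:**
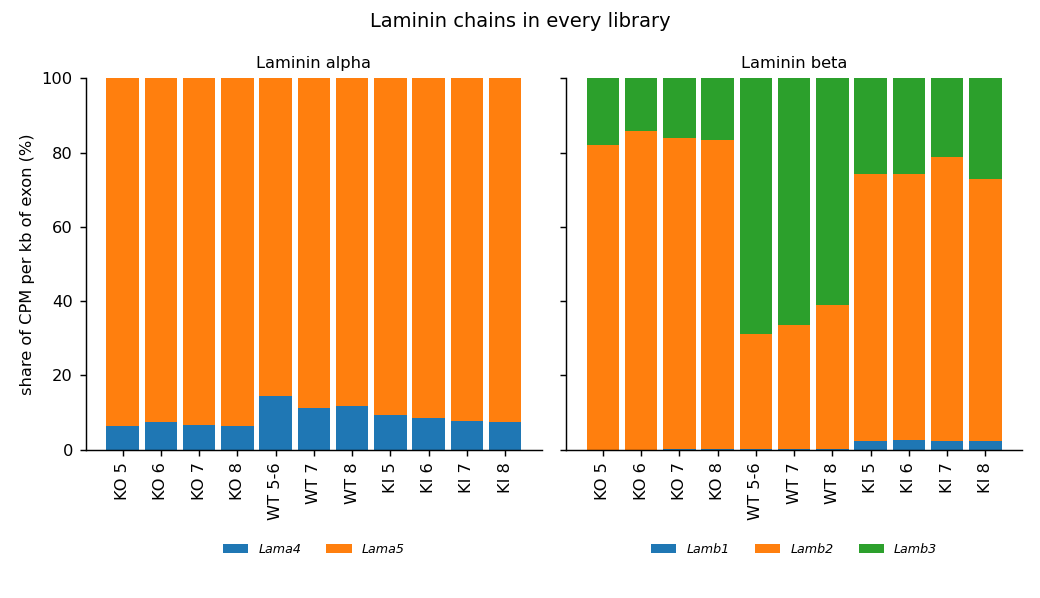
Share of each chain within the laminin alpha and beta genes (vertical axis, percent of CPM per kb of exon) in every library (horizontal axis). *Lamb3* holds over 60% of the beta bar in each WT library and under 28% in each KO and KI library.

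Of 13 laminin trimers considered, 6 had all their chains detected: 411, 421, 423, 511, 521 and 523, named by their alpha, beta and gamma chains. The other 7 lacked a detected *Lama1*, *Lama2* or *Lama3*. Taking the level of the lowest chain, laminin 521 was the highest, at 18 CPM per kb in KO (range 12.9 to 21.7), 13.7 in WT (9.50 to 17.9) and 7.89 in KI cells (6.71 to 9.44), with *Lamc1* lowest in each group. The highest KI library lay just under the lowest WT library, and KO and WT overlapped. Laminin 511, limited by *Lamb1*, was at 0.0239 in KO, 0.165 in WT and 1.09 CPM per kb in KI cells, and the 3 groups did not overlap.

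Of the collagen-binding integrin subunits, *Itga2* (chromosome 13, 114833081 to 114932100) differed most. Its product, alpha 2, pairs with beta 1 and binds collagen and, in some cells, laminin. It stood at 20.6, 24.1, 21.2 and 25.6 CPM in the KO, at 96.3, 116 and 122 CPM in the WT and at 66.7, 57.6, 63.7 and 57.5 CPM in the KI libraries. The groups did not overlap, and their order was that of *Lamb3*, with KO lowest. The log2 fold change was -2.31 in KO against WT (SE 0.14, adjusted p = 4.23e-07), -0.86 in KI against WT (SE 0.14, adjusted p = 0.000321) and -1.42 in KO against KI (SE 0.10, adjusted p = 1.99e-08). These 3 calls held under every alternative run. *Itga1*, another collagen receptor subunit, whose gene lies near *Itga2* on chromosome 13, ranged only from 31.9 to 47.0 CPM over all libraries and was not called in any comparison (adjusted p from 0.18 to 0.451), though KO against WT was called with library totals or without WT 8. *Itga10* was at 0 to 43 counts and was not called either.

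Of the laminin-binding subunits *Itga3*, *Itga6* and *Itga7*, only *Itga7* was called against WT in opposite directions in the edited lines. *Itga7* (chromosome 10, 128933818 to 128958282), best known as the laminin receptor subunit of muscle, stood at 69.1, 63.1, 73.0 and 64.2 CPM in the KO, at 39.9, 41.9 and 42.5 CPM in the WT and at 14.2, 17.4, 13.2 and 18.6 CPM in the KI libraries. The KO libraries were highest and the KI libraries lowest, without overlap. It rose in KO against WT by 0.68 on the log2 scale (SE 0.11, adjusted p = 0.000494), fell in KI against WT by 1.38 (SE 0.15, adjusted p = 2.51e-05) and was higher in KO than in KI by 2.09 (SE 0.12, adjusted p = 1.21e-09). Exons of *Itga7* overlap those of *Mettl7b* on the other strand, which had up to 887 counts, and the sources used here do not say that strand was used in counting. *Itga3* ranged from 130.1 to 179 CPM in KO, from 147 to 200.3 in WT and from 222 to 265 in KI libraries. It was higher in KI than in WT cells (0.58, SE 0.15, adjusted p = 0.00783) and lower in KO than in KI cells (-0.70, SE 0.10, adjusted p = 3.92e-05), and KO and WT overlapped. *Itga6* ranged from 35.5 to 58.6, 28.9 to 41.4 and 24.2 to 32.4 CPM in KO, WT and KI libraries, and KO against KI was called (0.67, SE 0.14, adjusted p = 0.00104). KO against WT was not (0.40, SE 0.19, adjusted p = 0.0885), but was with library totals or without KO 5 or WT 8.

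*Itgb4* (chromosome 11, 115974709 to 116008412) encodes beta 4, which pairs with alpha 6 alone and anchors hemidesmosomes to keratin filaments. Its levels were 8.38, 7.58, 7.65 and 8.7 CPM in the KO, 10.1, 13.1 and 20.3 CPM in the WT and 2.1, 2.51, 3.71 and 1.76 CPM in the KI libraries. WT 8 was well above the other WT libraries, and the groups still did not overlap. It was lower than WT in KI cells (-2.49, SE 0.28, adjusted p = 3.09e-05) and lower in KI than in KO cells (KO against KI 1.66, SE 0.21, adjusted p = 1.09e-05). The KO difference from WT (-0.86, SE 0.22, adjusted p = 0.0061) was -0.51 without WT 8, where it was still called, and was not called with library totals. The ratio of *Itga6* to *Itgb4* per kb was 3.53 in WT, 8.14 in KO and 17.3 in KI cells. With the length of all exons it was 1.90, 4.39 and 9.35, in the same order of groups.

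*Itgb1* (chromosome 8, 128685654 to 128733200), the beta 1 subunit shared by most receptors of matrix, was by far the most abundant of the integrin genes, at 294.7 CPM per kb in WT, 127 in KO and 298 in KI cells. In CPM it stood at 547, 459, 495 and 437 in the KO, at 1241, 1299.5 and 833 in the WT and at 1134, 1108, 1006 and 1296 in the KI libraries. All KO libraries were below all others, and WT and KI overlapped. It fell in KO against WT by 1.24 on the log2 scale (SE 0.17, adjusted p = 0.000157) and was lower in KO than in KI (-1.22, SE 0.10, adjusted p = 9.69e-08). KI against WT was 0.01 (SE 0.18, adjusted p = 0.967). The summed level of its alpha partners was 105 CPM per kb in KO, 117 in WT and 118 in KI cells on average, and the alpha subunit was the lower of each beta 1 pair in each group.

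Among those alpha partners the makeup differed between the lines. *Itga2* was 12.8 to 14.1% of their summed CPM per kb in WT, 3.05% on average in KO and 6.86 to 7.8% in KI libraries. *Itga7* was 7.87 to 9.77% in WT, 16.0% on average in KO and 2.67 to 4.2% in KI libraries. *Itga3* and *Itgav* held the largest shares in every group. *Itga3* was 26.9 to 30.6% in WT and 41.4 to 46.1% in KI libraries. With the length of all exons the order of the groups was the same for *Itga2* and *Itga7*, but *Itga7* came to 9.66 to 13.3% in KO, 5.23 to 6.52% in WT and 1.71 to 2.69% in KI libraries.

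**Figure D4:**
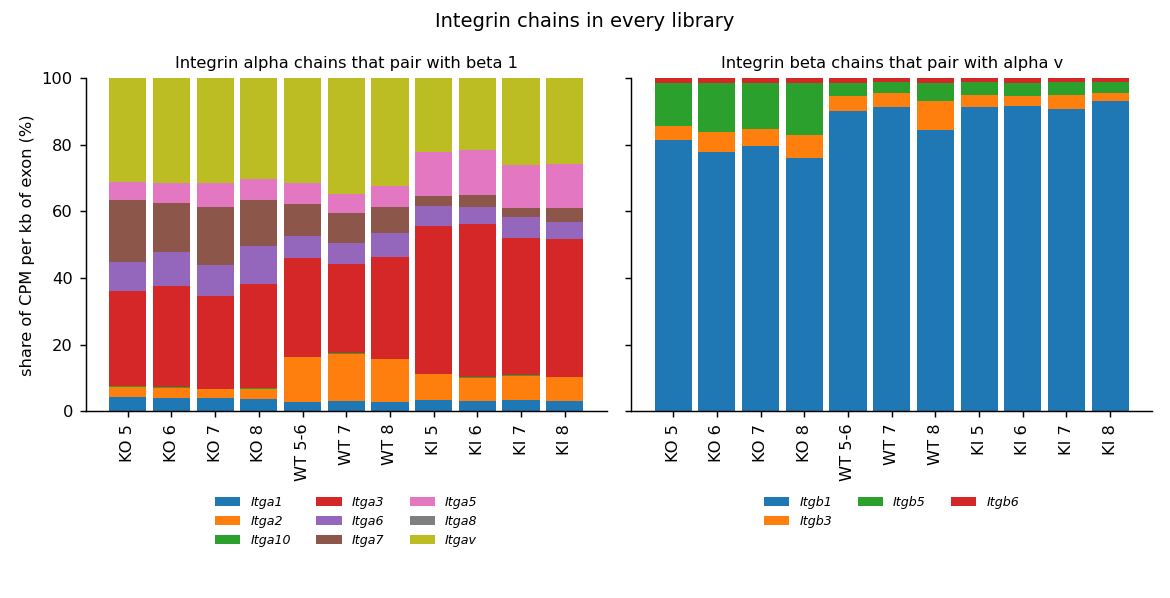
Share of each alpha subunit that pairs with beta 1 (left) and of each beta subunit that pairs with alpha v (right), as percent of CPM per kb of exon in every library. *Itga2* is widest in the WT bars, *Itga7* and *Itgb5* in the KO bars, and *Itga3* and *Itga5* in the KI bars.

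Of the subunits that bind the RGD motif of fibronectin and vitronectin, *Itga5*, the alpha subunit of the main fibronectin receptor, stood at 22.5, 27.2, 32.9 and 33.7 CPM in the KO, at 27.1, 29.4 and 36.3 CPM in the WT and at 70.0, 69.6, 70.2 and 64.7 CPM in the KI libraries. KO and WT overlapped, and all KI libraries were above both. It was higher in KI than in WT cells (1.15, SE 0.14, adjusted p = 5.79e-05) and lower in KO than in KI cells (-1.23, SE 0.12, adjusted p = 5.48e-07), and KO against WT was not called (-0.11, SE 0.17, adjusted p = 0.608). *Itgav*, the alpha v subunit, ranged from 205 to 250.0, 226 to 308 and 179 to 226 CPM in KO, WT and KI libraries. Its call in KI against WT (-0.46, SE 0.15, adjusted p = 0.0254) was lost with library totals, without WT 7 and without KI 5 or KI 6, with an adjusted p of up to 0.0865 when a library was left out.

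The beta partners of alpha v differed in direction. *Itgb3*, which with alpha v binds vitronectin and osteopontin, had 42.3, 55.3, 48.6 and 59.0 CPM in the KO, 91.6, 96.3 and 132 CPM in the WT and 69.9, 58.1, 69.4 and 49.7 CPM in the KI libraries. The WT libraries were above all others, and KO and KI overlapped. It was lower than WT in KO (-1.07, SE 0.16, adjusted p = 0.000235) and in KI cells (-0.79, SE 0.17, adjusted p = 0.00261), the latter not with library totals. *Itgb5*, another vitronectin receptor subunit, ranged from 73.1 to 77.3 CPM in KO libraries, against 38.5 to 46.5 in WT and 37.6 to 40.4 in KI libraries. It was higher in KO than in WT (0.76, SE 0.11, adjusted p = 0.000235) and than in KI cells (0.94, SE 0.08, adjusted p = 1.36e-07). The median over the 373 tested genes of its chromosome, 16, was 0.49 in KO against WT, and it was 0.50 in KO against KI. The other chromosomes of tested laminin and integrin genes had medians from -0.34 to 0.27 in KO against WT. The lowest were chromosome 11, with *Itgb3*, *Itgb4*, *Itga2b*, *Itgae* and *Itga3*, and chromosome 12, with *Lamb1*. The part of these shifts in the results was not tested. *Itgb6*, known from epithelia as an activator of latent TGF-beta, ranged from 10.1 to 11.1 CPM in KO, 17.4 to 24.5 in WT and 16.4 to 20.01 in KI libraries, and was lower in KO than in WT (-0.96, SE 0.15, adjusted p = 0.000332) and than in KI cells (-0.80, SE 0.11, adjusted p = 3.04e-05). The ratio of *Itgb3* to *Itgb5* per kb was on average 1.39 in WT, 0.389 in KO and 0.896 in KI cells, and *Itgb5* was 14.2% of the beta partners of alpha v in KO cells against 4.16% in WT cells on average.

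Subunits known from platelets and leukocytes were scarce. *Itga2b*, the platelet subunit that pairs with beta 3, had 1.04, 0.592, 0.51 and 0.368 CPM in the KO, 2.14, 2.02 and 1.42 CPM in the WT and 0.699, 0.607, 0.836 and 0.791 CPM in the KI libraries. It was lower than WT in KO (-1.50, SE 0.44, adjusted p = 0.0131) and in KI cells (-1.27, SE 0.40, adjusted p = 0.0211), and both calls were lost without WT 5-6, with an adjusted p of 0.0515 in the former, and the KI call also without WT 7 or with library totals. Of the 5 platelet markers 4 reached 10 counts, and they summed to 2.61 to 5.19 CPM in KO, 5.81 to 7.31 in WT and 5.32 to 7.37 in KI libraries. *Itgae*, which pairs with beta 7 on lymphocytes, had 0, 0.326, 0.18 and 0 CPM in the KO, 1.74, 2.54 and 1.45 CPM in the WT and 0.252, 0.469, 0.157 and 0.547 CPM in the KI libraries, or at most 63 counts. The WT libraries were highest, and the log2 fold change was -3.43 in KO (SE 0.79, adjusted p = 0.00349) and -2.24 in KI cells (SE 0.50, adjusted p = 0.00334). In KO against WT it passed the count filter through the WT libraries (39 to 63 counts, against 0 to 11 in KO). The same held in KI against WT, where the KI libraries had 6 to 18 counts. *Itgae* was not tested in KO against KI. Its partner *Itgb7* was not detected. *Itgam*, which pairs with *Itgb2* on myeloid cells, had 0.224, 0, 0.06 and 0 CPM in the KO, 0, 0.605 and 0.85 CPM in the WT and 1.45, 0.882, 0.758 and 1.46 CPM in the KI libraries, and was lower in KO than in KI cells (-3.25, SE 0.65, adjusted p = 0.000589). It passed the count filter there only through the KI libraries (29 to 52 counts, against 0 to 8 in KO). *Itgam* was not tested in KO against WT, and KI against WT was not called (1.10, SE 0.71, adjusted p = 0.227). *Itgb2* had at most 18 counts and *Itga8*, a receptor subunit for nephronectin, at most 11, and neither was tested. Of the 8 leukocyte markers 3 reached 10 counts, and they summed to 376 to 464 CPM in KO, 481 to 669 in WT and 374 to 422 in KI libraries, nearly all of it *Cd14*. *Ptprc* was at most 0.326 CPM in the KO libraries, 1.31 to 2.7 in the WT and 1.09 to 2.77 in the KI libraries, and *Adgre1* and *Clec4f* were at 0 counts in all of them. The part of these markers in the *Itga2b*, *Itgam* and *Itgae* values was not tested.

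By pair, 15 of 23 integrin heterodimers had both subunits detected. The lowest subunit of alpha 2 beta 1 was *Itga2*, at 15.7 CPM per kb in WT, 3.22 in KO and 8.63 in KI cells. Among the pairs of *Itga3*, *Itga6* and *Itga7*, alpha 3 beta 1, limited by *Itga3*, was the highest in each group. It was at 34.2 in WT, 31.3 in KO and 51.1 CPM per kb in KI cells. Alpha 7 beta 1 followed it in WT (10.3) and KO cells (16.8), but in KI cells it stood at 3.95, below alpha 6 beta 1 at 6.65. With the length of all exons alpha 7 beta 1 was at 5.12, 8.32 and 1.96 in WT, KO and KI cells and alpha 6 beta 1 at 3.77, 5.06 and 3.18, so that their order in each group was the same at lower levels. Alpha 6 beta 4, limited by *Itgb4*, was at 2.33 in WT, 1.30 in KO and 0.406 CPM per kb in KI cells. Of the RGD receptors, alpha 5 beta 1 stood at 7.06 in WT, 6.64 in KO and 15.7 CPM per kb in KI cells, and alpha v beta 3 at 18.4, 8.87 and 10.7. Alpha v beta 5 went the other way in KO cells, at 13.3, 22.8 and 11.9. Alpha v beta 1 was the highest of the RGD receptors in each group, at 38.7, 32.7 and 28.1. The heterodimers without both subunits were alpha 11 beta 1, alpha v beta 8, and those of alpha 4, alpha 9, alpha E, alpha L and alpha X.

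The genes around laminins and integrins were counted in 9 lists of 136 genes in all, covering ligands, other receptors, adaptors, signalling and processing. In KO against WT cells 65 of 112 tested genes were called, 27 higher and 38 lower (58.0%, where the background was 55.1%). In KI against WT cells it was 50 of 109, 26 higher and 24 lower (45.9% against 42.3%), and in KO against KI 75 of 111, 30 higher and 45 lower (67.6% against 54.0%). With library totals the split was 46 higher and 23 lower in KO against WT, and 42 higher and 10 lower in KI against WT. In KI against WT 33 genes were called without WT 7, 17 of them higher, and 66 without WT 8, 42 of them higher.

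The counts by list that follow stand against 55.1% of all genes called in KO against WT and 42.3% in KI against WT. The lists are short, and a count near these shares is no result about its list. Among the basement membrane partners 6 of 13 tested genes were called in KO against WT, all lower, and 11 of 13 in KI against WT, 5 higher and 6 lower. *Smoc1*, a matrix protein of basement membranes, was at 14.9 to 17.8 CPM in WT and at most 0.644 in KO and 0.547 in KI libraries (log2 fold changes -5.12, SE 0.28, and -5.24, SE 0.27). *Nid1*, encoding nidogen, which links laminin gamma 1 to collagen IV, was 23.4 to 32.0 CPM in WT and 21.9 to 30.5 in KO, but 3.24 to 4.68 in KI libraries (KI against WT -2.93, SE 0.19, adjusted p = 4.15e-07). *Col4a1*, a chain of the collagen IV network, rose in KI cells by 1.11 (SE 0.16, adjusted p = 0.000192), and *Col7a1*, the collagen of anchoring fibrils, by 1.54 (SE 0.20, adjusted p = 8.44e-05). *Col7a1* was at 0.598 to 0.99 CPM in KO libraries and 2.99 to 4.64 in WT libraries.

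Of the other laminin receptors 4 of 6 genes were called in KO against WT and 3 of 6 in KI against WT, all lower. *Bcam*, which binds the laminin alpha 5 chain, stood at 24.5 to 37.1 CPM in WT, 5.61 to 9.32 in KO and 4.65 to 7.36 in KI libraries (KO against WT -2.07, SE 0.19, adjusted p = 1.02e-05; KI against WT -2.38, SE 0.19, adjusted p = 2.86e-06). Of the other integrin ligands 15 of 16 were called in KO against WT, 6 higher and 9 lower, and 7 of 14 in KI against WT, 6 higher and 1 lower. *Spp1*, osteopontin, a ligand of alpha v integrins that also stands in the cholangiocyte marker list, was 211 to 282 CPM in KO libraries against 1945 to 3288 in WT libraries (-3.38, SE 0.20, adjusted p = 4.23e-07). *Fn1*, fibronectin, was 258 to 433 CPM in KO libraries against 809.8 to 1493 in WT libraries (-1.69, SE 0.23, adjusted p = 0.000118). *Ccn1*, a matricellular ligand of alpha v and alpha 6 integrins, rose in KI cells to 221 to 262 CPM from 18.6 to 24.8 in WT libraries (3.47, SE 0.16, adjusted p = 4.51e-08). The KO libraries, at 34.3 to 43.9 CPM, also lay above the WT libraries. *Tnxb*, tenascin X, was at 11.3 to 24.9 CPM in KO libraries and at 0 counts in the 3 WT libraries.

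Of the integrin activators and adaptors 21 of 32 were called in KO against WT, 10 higher and 11 lower, and 16 of 32 in KI against WT, 8 higher and 8 lower. *Enah*, an actin regulator of focal adhesions, was 44.2 to 52.6 CPM in WT, 16.8 to 18.9 in KI and at most 0.449 in KO libraries. *Parvb*, a partner of integrin-linked kinase, was 5.13 to 7.08 CPM in WT and 8.86 to 12.5 in KI but at most 0.0561 in KO libraries. *Flna*, filamin A, which binds beta tails, was higher than WT in KO (1.36, SE 0.19, adjusted p = 0.000171) and in KI cells (1.35, SE 0.19, adjusted p = 0.000163). *Fermt2*, encoding kindlin-2, an activator of integrins, was lower in KI than in WT cells (-1.07, SE 0.12, adjusted p = 3.42e-05). The KO libraries also lay below the WT libraries, at 118 to 132 CPM, with 95.7 to 110 in KI and 218 to 229 in WT libraries.

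Of the adhesion signalling genes 6 of 15 were called in KO against WT and 5 of 15 in KI against WT. *Bcar1*, the scaffold p130Cas, was higher in KI than in WT cells (0.85, SE 0.16, adjusted p = 0.00091) and lower in KO than in KI cells (-1.59, SE 0.08, adjusted p = 4.94e-10). Of 5 tested hemidesmosome genes 1 was called in KO against WT, *Plec* (1.23, SE 0.21, adjusted p = 0.00056), which encodes plectin, the link of beta 4 to keratins. In KI against WT 2 were called, the keratin genes *Krt18* (0.86, SE 0.22, adjusted p = 0.00828) and *Krt8* (0.62, SE 0.18, adjusted p = 0.0137). Of the tetraspanins and membrane partners 2 of 8 were called in KO against WT and 3 of 8 in KI against WT, all lower. *Cd82* was among the latter (-0.82, SE 0.13, adjusted p = 0.000268). Of the genes that glycosylate dystroglycan, a laminin receptor, 7 of 12 were called in KO against WT and 3 of 11 in KI against WT. Of the processing enzymes 3 of 5 were called in KO against WT and 0 of 5 in KI against WT. *Pcsk6*, a proprotein convertase, stood at 45.8 to 58.1 CPM in KO against 8.16 to 17.9 in WT libraries (1.95, SE 0.23, adjusted p = 5.11e-05).

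The libraries also differed by transcript length. Genes with over 7 kb of exon lay at a median of -0.29 (log2) from the mean of all libraries in WT 5-6 and -0.13 in WT 7, against 0.03 in WT 8 and up to 0.17 in the KO libraries. Many laminin and integrin genes are long, so the fits were repeated with this length trend removed. The calls then numbered 14 in KO against WT, 16 in KI against WT and 19 in KO against KI. Over all genes the calls went from 7364 to 7562, from 5722 to 5911 and from 7171 to 7432. *Lamb2* lost its call in KI against WT (adjusted p = 0.0515), and *Itgav* gained one in KO against WT (-0.39, adjusted p = 0.00786) and *Itga6* in KI against WT (-0.39, adjusted p = 0.0312). In KO against KI *Itgav* (0.22, adjusted p = 0.0247) and *Itgb3* (-0.29, adjusted p = 0.0365) gained calls. All 17 calls of KO against KI, 9 of 13 of KO against WT and 11 of 16 of KI against WT were kept under every alternative run.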

How the data were processed

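RNA-seq counts per gene were used for 11 libraries of AML12 cells (4 KO, 3 WT, 4 KI). The authors deposited a table of raw read counts per gene without normalization, made by their sequencing provider. The submitters' processing notes name HISAT2, TopHat2, Bowtie2 and StringTie, and the genome build is not given in the sources used here. The 11 FPKM columns of the table, whose decimal points are missing, and 9 columns of the authors' own comparisons (fold changes and p-values from DESeq2) were not used.

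Of 26472 lines, 10 with broken annotation were left out, and counts were summed by gene name, also for *Itgae*, which has 2 entries. Genes were kept by filterByExpr of edgeR 4.0.16 (R 4.3.3), scaled by TMM and tested with the robust quasi-likelihood test, prior count 2, Benjamini-Hochberg over all genes, each comparison on the libraries of its 2 groups. SEs were the log2 fold change divided by the root of F. The procedure was tested on simulated data. Levels in CPM used TMM factors of all 11 libraries, which were 0.744 to 0.947 in WT, 1.05 to 1.13 in KO and 1.02 to 1.12 in KI libraries. Lengths and exon overlaps came from GENCODE M21 on GRCm38, which matched all 36 genes by name, and promoter sequences from RefSeq (GRCm38.p6). Figures were drawn with matplotlib 3.10.9 (Python 3.11.15).

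Detected laminin and integrin genes were named, except for items that are not reported here, and those called with an absolute log2 fold change of at least 1 were given per library. For each other list, up to 2 called genes with the largest rise and 2 with the largest fall per comparison, at a mean of at least 2 CPM, could be named, and those printed were chosen from these after their values were seen. The genes, lists, trimers and heterodimers were chosen with earlier results of these data known. Alternatives were DESeq2 1.42.0, library totals, no filter, limma 3.58.1 on log2 CPM plus 1, all libraries in one fit, the replicate number as a block, each library left out, and 2 newly assembled entries left out. The length offsets, in 20 bins of exon length, were chosen after seeing the data. Over all genes, same-numbered libraries varied together weakly at most (correlations of -0.19 to 0.21 over 12 pairs), so they were not treated as pairs. The 2 pairs over 0.1 were both of KO and WT, KO 5 with WT 5-6 (0.16) and KO 8 with WT 8 (0.21). Within their groups, genes with over 7 kb of exon were lowest in KO 5 and WT 5-6 and highest in KO 8 and WT 8. Some shared variation by number between KO and WT is therefore possible. No 2 libraries of a group agreed within counting noise (chi-square per degree of freedom of at least 17.15).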

Additional observations from a re-analysis of the deposited data

Results flagged for a closer look

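In 3 of 51 gene and group combinations with 4 libraries, 1 library stood apart by Dixon's ratio, the gap to its nearest neighbour over the range of the group, where chance gives 2.55. *Itga5* was lower in KI 8 (64.7 CPM, 2128 counts) than in the other KI libraries (69.6 to 70.2 CPM), a ratio of 0.893, and all 4 stayed above every KO and WT library. *Itga8* had 11 counts in KI 7 and 0 in the other KI libraries, a ratio of 1.0. *Itga10* had 0 counts in KO 7 and 31 to 43 counts in the other KO libraries, a ratio of 0.862.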

How the results depend on the processing

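Directions and calls of laminin and integrin genes were unchanged for all 70 tested values without the 2 newly assembled entries, and for 69 of 70 each with DESeq2, with no filter and with all libraries in one fit. Library totals moved the most, with 9 directions and 11 calls changed. By construction they leave out the scaling that set the median of all genes near 0. The 2 newly assembled entries held 14.8 to 22.4% of the counts in WT, 6.41 to 8.45% in KO and 7.71 to 12.8% in KI libraries. Their part in the changes with library totals was not tested. In KO against WT, the laminin and integrin genes called higher became 5 with library totals and 4 with the replicate block, and 2 to 5 with a library left out, 5 of them without WT 8. The adhesion list genes in KO against WT became 46 higher and 23 lower with library totals. In KI against WT they became 42 higher and 10 lower with library totals, and with a library left out 33 to 66 called and 17 to 42 higher, the lowest without WT 7 (33 called, 17 higher) and 42 higher without WT 8. The cause was not tested.

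Values that changed sign were never called under the alternative. In KO against WT, library totals gave 0.14 for *Itgav*, 0.25 for *Itga3*, 0.29 for *Itga5*, 0.38 for *Lama5* and 0.31 for *Lamb2*. With a library left out *Itga3* ranged from -0.23 to 0.038, *Itga5* from -0.19 to 0.050 and *Lamb2* from -0.19 to 0.20, each turning without WT 8, and *Itga10* from -0.13 to 0.90, turning without WT 5-6. *Lama5*, at -0.01, was 0.0058 with no filter, 0.013 with limma, 0.012 with all libraries in one fit, 0.096 with the block, and -0.18 to 0.23 with a library left out. In KI against WT, library totals gave 0.062 for *Itga6*, 0.21 for *Itga10*, 0.17 for *Itgb5* and 0.21 for *Itgb6*. *Itga10* was 0.021 with limma, 0.26 with the block and -0.49 to 0.53 with a library left out. *Itgb1* was -0.01 with DESeq2, -0.038 with length offsets and -0.16 to 0.13 with a library left out, and *Itgb6* was -0.24 to 0.013, turning without WT 5-6.

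With the replicate number as a block, 15 laminin and integrin genes were called in KO against WT, 14 in KI against WT and 17 in KO against KI. The calls over all genes went from 7364 to 8183, from 5722 to 4891 and from 7171 to 6453 in these comparisons. In KO against WT *Lamc1* (adjusted p = 0.00719) and *Itga6* (0.00594) gained a call with the block, and in KI against WT *Itgav* (0.0586) and *Lamb2* (0.0616) lost theirs. Same-numbered libraries were not shown to be paired, so this is not read as a weaker effect. Depth limits *Lamb1* in KO cells, *Lamc3*, *Itgae*, *Itgam*, *Itga2b* and *Itga10*, which had under 70 counts in every library of at least a pair of groups.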
